A study of Mus musculus with 8 samples.

Results

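The secreted proteins of airway and alveolar epithelium are described here in thymic cells that lack or carry Cdx1. The 10 genes are 3 BPI-fold genes (Bpifa1, Bpifa3 and Bpifb1), 3 secretoglobin genes (Scgb1a1, Scgb3a1 and Scgb3a2) and 4 surfactant protein genes (Sftpa1, Sftpb, Sftpc and Sftpd), out of 34761 gene names on the array. They were found by the gene name of their 14 probes, and the set was chosen with results of both comparisons below known. It was thus selected on these values, so the genes' levels are given as a description and no p-value is given for them.

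Gene expression was measured on 8 one-colour Agilent arrays, 1 pooled RNA sample on each. The groups were Cdx1-/- mTEC (n = 3), Cdx1+/+ mTEC (n = 3) and small intestine epithelial cells (SIEC), with 1 array labelled Cdx1-/- and 1 labelled Cdx1+/+. All mice were of mixed C57BL/6 and 129 background, and no age is given in the labels. The mTEC, medullary thymic epithelial cells, were sorted as live CD45-negative cells positive for Epcam and UEA1 and high for CD80 and MHC class II, each sample from 4 to 6 pooled thymi, while each SIEC sample pooled Epcam-positive CD45-negative cells of 3 mice. The series title names the question as how Cdx1, a caudal-type homeobox factor of gut epithelium, bears on ectopic gene expression in mTEC. Ectopic expression is the transcription of genes of other organs by which mTEC show self proteins to developing T cells. In pooled bulk samples, fewer cells that express a gene and less RNA per cell cannot be told apart.

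Of the BPI-fold proteins, Bpifa1 (also called SPLUNC1 or Plunc) and Bpifb1 (LPLUNC1) are secreted into airway and oral fluid and take part in mucosal defence. Bpifa3 is in the set by its gene family. Secretoglobins are small secreted proteins, and Scgb1a1, also called CC10, is the classic product of airway club cells. The surfactant proteins come from alveolar type 2 cells: SP-B and SP-C (Sftpb, Sftpc) are hydrophobic proteins that spread the lipid film, and SP-A and SP-D (Sftpa1, Sftpd) are collectins, lectins that bind microbes.

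A level here means a log2 signal minus the array's own 75th percentile. Between 58.6% and 63.5% of spots were well above background on the mTEC arrays, against 44.6% and 46.3% on the SIEC arrays, and no spot was saturated. Slide 1 held Cdx1-/- mTEC replicates 2 and 3 and all 3 Cdx1+/+ mTEC arrays, and slide 2 held Cdx1-/- mTEC replicate 1 and both SIEC arrays, so values within slide 1 are given beside the main ones. The Cdx1 probe averaged 4.93 ± 0.11 in Cdx1-/- mTEC and 5.91 ± 0.04 in Cdx1+/+ mTEC (SD, n = 3 each), which is -0.99 on the log2 scale (SE 0.09, limma adjusted p = 0.00369). In SIEC it read 6.48 where the label was Cdx1-/- and 4.87 where it was Cdx1+/+, against the direction of the labels. The labels do not say which part of Cdx1 is deleted, so this probe checks them little. All 11 mature mTEC markers, Aire and Fezf2 among them, were well above background on all mTEC arrays, and the 8 small intestine epithelium markers on both SIEC arrays. The 8 intestine markers were so on all mTEC arrays too, and 6 of the 11 mTEC markers on each SIEC array. Detection alone does not separate the tissues. Median log2 differences, mTEC minus SIEC, were -6.20 (intestine) and 2.87 (mTEC markers). All 9 thymocyte, 5 B cell and 8 dendritic cell and macrophage markers were well above background on all mTEC arrays. Of the 5 B cell markers 2 passed limma's test as higher in Cdx1-/- mTEC, where 6.31% of all genes did, and 3 did not pass. The median log2 difference of the B cell markers went the other way, at -0.30. What other cells contributed was not tested.

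In mTEC, 9 of the 10 genes were well above background on all 6 arrays, and Bpifa1 and Bpifa3 had the largest differences between the genotypes among them. Of these 9, 3 passed limma's test as higher in Cdx1-/- mTEC (Bpifa1, Bpifa3 and Sftpa1), 2 as lower (Sftpb and Sftpc) and 4 did not pass. Over all 24229 genes tested, 13.0% passed in either direction, 6.31% as higher and 6.64% as lower. For 5 of the 9 the arrays of the genotypes did not overlap, as for 38.0% of all genes. The median log2 difference was 0.18 over the 9 genes and 0.003 over all genes, and the median absolute difference was 0.34 and 0.20. These figures are a description, since the set was chosen with the contrast in view.

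**Figure D1:**
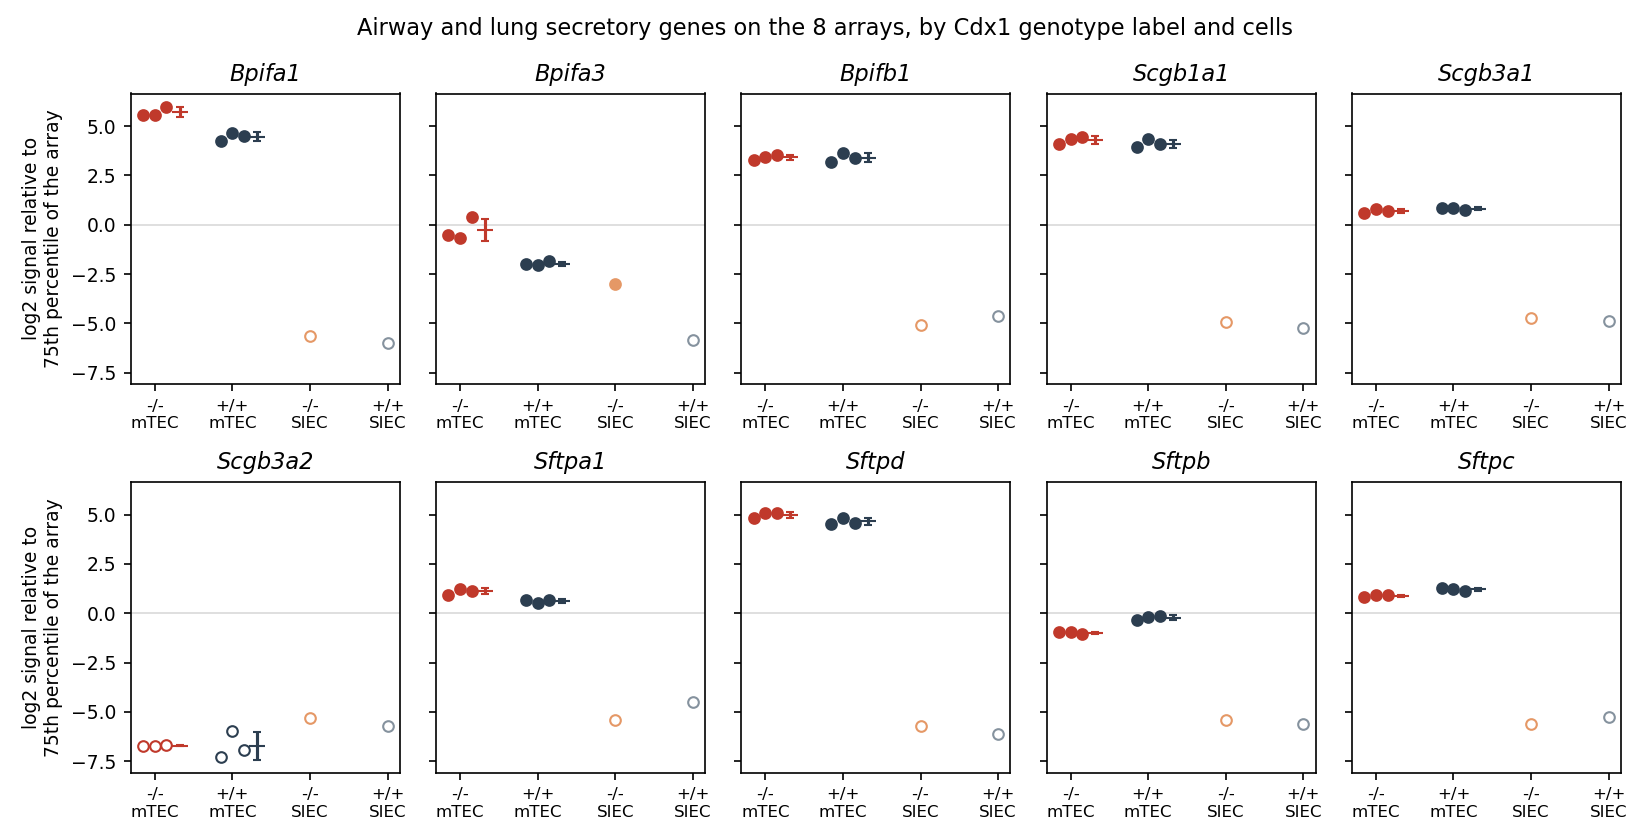
Log2 signal minus the array's own 75th percentile (y axis) for the 10 genes, 1 panel a gene, in Cdx1-/- mTEC, Cdx1+/+ mTEC and the SIEC arrays labelled Cdx1-/- and Cdx1+/+ (x axis). Filled points were well above background and open points were not, and bars give the mean and SD of 3 arrays. Where a gene has several probes the brightest detected one is drawn, and Scgb3a2, with open points only, is drawn with 1 of its 2 probes.

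Bpifa1 was higher in Cdx1-/- mTEC. It read 5.59, 5.58 and 5.99 on the Cdx1-/- mTEC arrays, against 4.24, 4.67 and 4.51 on the Cdx1+/+ mTEC arrays. All Cdx1-/- arrays lay above all Cdx1+/+ arrays, with the third Cdx1-/- array highest. The log2 difference was 1.25 (SE 0.16), or 2.37-fold, and 1.31 within slide 1. Its probe spans 421 bases on chromosome 2 (153973411 to 153973831, mm9) for a length of 60, so it crosses an intron.

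Bpifa3, a BPI-fold gene next to Bpifa1, had the largest difference of the set and also the widest spread. Its levels were -0.50, -0.66 and 0.38 in Cdx1-/- mTEC, against -2.02, -2.04 and -1.85 in Cdx1+/+ mTEC. The genotypes were apart on every array, but the third Cdx1-/- array stood well above the other two. The means were -0.26 ± 0.56 in Cdx1-/- and -1.97 ± 0.10 in Cdx1+/+ mTEC (SD, n = 3 each). The log2 difference was 1.71 (SE 0.26), or 3.27-fold, and 1.83 within slide 1. Its probe lies on chromosome 2 (153964032 to 153964091, mm9), 9.56 kb before that of Bpifa1.

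Bpifb1, on the same stretch of chromosome 2, overlapped between the genotypes. It stood at 3.27, 3.42 and 3.55 in Cdx1-/- mTEC and at 3.18, 3.62 and 3.40 in Cdx1+/+ mTEC. No array set stood apart, and the log2 difference was 0.01 (SE 0.14), or 0.09 within slide 1. A second probe, which shares 35 bases with the first, gave -0.03.

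The 250 bases before the start of Bpifa1 and Bpifa3 are shown because these neighbours moved together, by the RefSeq start sites of build GRCm38.p6 (chr2:154142630-154142879 and chr2:154130086-154130335, both on the plus strand). Capitals mark TATAAA, the TATA box, and CTTGAG, the reverse complement of CTCAAG, a core bound by Nkx2-1, the lung and thyroid factor.
Bpifa1: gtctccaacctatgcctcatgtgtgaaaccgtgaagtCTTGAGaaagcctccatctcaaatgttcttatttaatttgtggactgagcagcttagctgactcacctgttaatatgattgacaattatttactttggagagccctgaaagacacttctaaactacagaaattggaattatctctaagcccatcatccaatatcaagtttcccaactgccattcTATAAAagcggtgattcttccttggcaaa
Bpifa3: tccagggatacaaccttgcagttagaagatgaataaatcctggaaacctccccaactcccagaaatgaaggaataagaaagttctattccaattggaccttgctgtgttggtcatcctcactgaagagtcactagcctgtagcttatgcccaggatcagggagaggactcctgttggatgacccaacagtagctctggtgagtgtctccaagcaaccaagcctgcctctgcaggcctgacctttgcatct
Both strands were searched. Of 32851 promoter windows of this length, 12.4% hold TATAAA and 13.3% hold the Nkx2-1 core. The forkhead motif, spelled TGTTTAC, is in 3.17% of them, and the caudal-type motif, spelled TTTATG, is in 10.8%. Bpifa1 held the TATA box 29 bases before the start and the Nkx2-1 core, on the minus strand, 213 bases before it. Bpifa3 held none of the 4 as spelled here, and neither did the windows of either listed start of Bpifb1. These are matches of letters in a window and not sites of binding.

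Around this pair, no other BPI-fold gene passed as higher. The cluster on chromosome 2 holds 12 tested BPI-fold genes over 425.6 kb, of which 9 are outside the set. Of the 9, none passed as higher, 2 passed as lower and their median log2 difference was -0.21. The 2 were Bpifb2 (-0.47, SE 0.11, limma adjusted p = 0.0405) and Bpifb6 (-0.34, SE 0.08, limma adjusted p = 0.0367), which lie 243 kb and 226 kb before Bpifa3. Within slide 1 they read -0.41 and -0.33 and did not pass. Bpifb3 (-0.17), Bpifb4 (-0.45), Bpifa6 (0.11) and Bpifa2 (-0.16) fill the stretch up to Bpifa3, none past the test (limma adjusted p between 0.0719 and 0.526). Bpifa5, the nearest tested gene beyond Bpifa1 and 30.1 kb from Bpifa3, was at -0.02 (SE 0.11, limma adjusted p = 0.93). Beyond Bpifb1, Bpifb5 stood at -0.27 and Bpifb9b at -0.21, and neither passed. The list of other BPI-fold genes leaves out Bpifa1, Bpifa3 and Bpifb1. To the 9 it adds the lipid-binding relatives of BPI elsewhere in the genome. Of its 13 tested genes, 0 rose and 2 fell, and 3 passed with replicate number as a block, where 14.4% of all genes did. Bpifb2 and Bpifb6 lost their calls without any 1 of the 6 arrays.

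**Figure D2:**
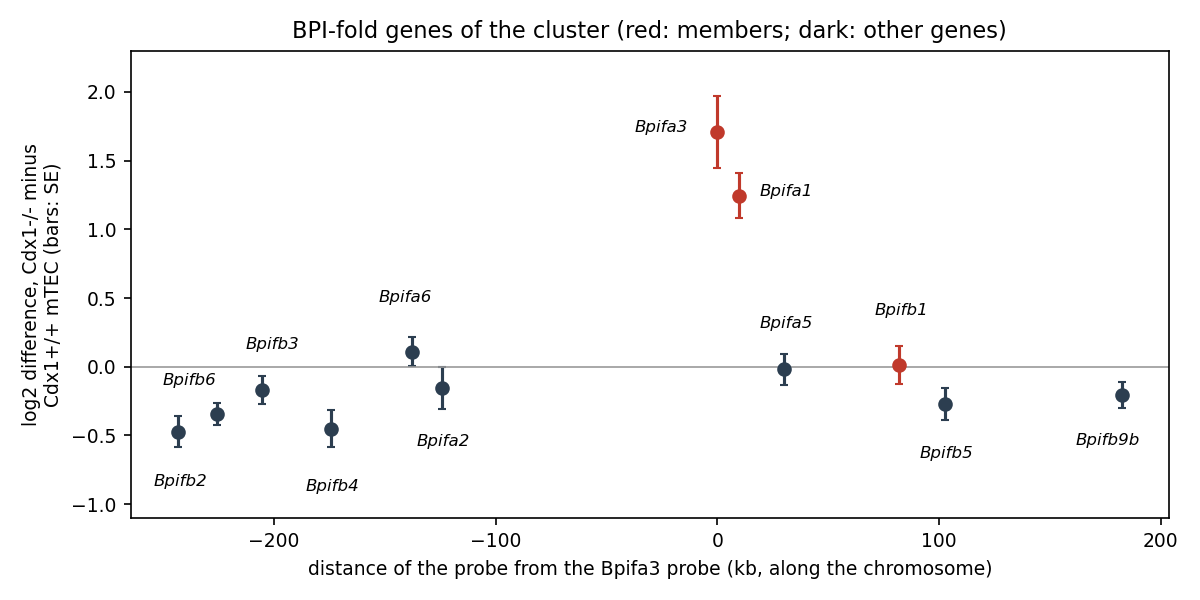
Log2 difference, Cdx1-/- minus Cdx1+/+ mTEC (y axis), of the 12 BPI-fold genes of the chromosome 2 cluster against the distance of the probe from that of Bpifa3 in kb (x axis). Points are fitted differences over 6 arrays with their SE, red for Bpifa1, Bpifa3 and Bpifb1 and dark for the others. Bpifa3 (1.71) and Bpifa1 (1.25) stand above the rest, which lie between -0.47 and 0.11.

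Both measured secretoglobins overlapped between the genotypes. Scgb1a1 read 4.07, 4.34 and 4.45 in Cdx1-/- mTEC, against 3.93, 4.33 and 4.08 in Cdx1+/+ mTEC. The second arrays of the 2 genotypes were almost equal, and the log2 difference of 0.18 (SE 0.15, and 0.28 within slide 1) was about the size of its error. Its probe on chromosome 19 (9158197 to 9158256, mm9) is printed as 10 spots on each array, whose SD was 0.03 to 0.07, so the spread between samples was larger than that between spots.

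Scgb3a1, an airway secretoglobin of the uteroglobin-related group, read 0.60, 0.79 and 0.69 in Cdx1-/- mTEC, against 0.87, 0.84 and 0.75 in Cdx1+/+ mTEC. One Cdx1-/- array lay among the Cdx1+/+ values, and the log2 difference was -0.12 (SE 0.09), or -0.08 within slide 1. It too has 10 spots an array, with an SD of 0.05 to 0.08 (chromosome 11, 49478489 to 49478548, mm9). Scgb3a2, a secretoglobin of the bronchial epithelium, was not well above background with either of its 2 probes on any of the 8 arrays, so its level has only a bound and it was not tested.

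Surfactant protein genes went both ways: the collectin Sftpa1 was higher, and the lipid-film proteins Sftpb and Sftpc were lower in Cdx1-/- mTEC. Sftpa1 stood at 0.94, 1.24 and 1.14 in Cdx1-/- mTEC, against 0.69, 0.53 and 0.65 in Cdx1+/+ mTEC (probe on chromosome 14, 41947507 to 41947566, mm9). The genotypes did not overlap. The log2 difference was 0.48 (SE 0.11), or 1.40-fold, and 0.57 within slide 1. With replicate number as a block it was the same 0.48 but no longer passed, and the call also ended without a filter on dim probes and without any 1 of Cdx1-/- replicates 2 and 3 and the 3 Cdx1+/+ replicates.

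Sftpd, the other collectin of the alveolus, read 4.83, 5.06 and 5.10 in Cdx1-/- mTEC, against 4.53, 4.85 and 4.60 in Cdx1+/+ mTEC. Only the highest Cdx1+/+ array reached into the Cdx1-/- range. The log2 difference was 0.34 (SE 0.12; 0.42 within slide 1), which did not pass. Its second probe, on another part of the transcript (chromosome 14, 41987767 to 41987826, against 41985664 to 41985723, mm9), read 2.94, 3.02 and 3.02 in Cdx1-/- mTEC and 2.39, 2.64 and 2.55 in Cdx1+/+ mTEC. On that probe the genotypes did not overlap and the difference was 0.47, the same direction as the first.

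Sftpb was lower in Cdx1-/- mTEC. It read -0.97, -0.95 and -1.04 in Cdx1-/- mTEC, against -0.33, -0.20 and -0.12 in Cdx1+/+ mTEC. The 3 Cdx1-/- arrays lay close together and well below all Cdx1+/+ arrays. The log2 difference was -0.77 (SE 0.09), or 1.70-fold, and -0.77 within slide 1 as well. This value came from the probe near the 3' end (chromosome 6, 72264305 to 72264364, mm9). The second probe spans 2572 bases of the gene (72257183 to 72259754) and so crosses introns. It read -3.81, -3.41 and -3.35 in Cdx1-/- mTEC, against -3.23, -3.13 and -3.24 in Cdx1+/+ mTEC, a difference of -0.32 (-0.18 within slide 1). Both probes were lower in Cdx1-/- mTEC, but by different amounts, and the mean of the 2 probes gave -0.54.

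The probes of Sftpb and Sftpd are shown because the genes' probes gave differences of different size. The 3' probe of Sftpb is given as its bases 29 to 58, with the polyadenylation signal AATAAA in capitals, and the others whole, as deposited in the scanner files.
Sftpb 3' probe: aaacttgagaagAATAAAgaatgggaacat
Sftpb intron-crossing probe: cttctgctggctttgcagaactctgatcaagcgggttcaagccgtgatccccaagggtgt
Sftpd first probe: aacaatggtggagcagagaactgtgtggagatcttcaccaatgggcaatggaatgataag
Sftpd second probe: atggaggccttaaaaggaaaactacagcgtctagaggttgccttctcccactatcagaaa
The 250 bases before the start of Sftpb (chr6:72304360-72304609, plus strand, GRCm38.p6, RefSeq) follow, with CTCAAG in capitals.
Sftpb: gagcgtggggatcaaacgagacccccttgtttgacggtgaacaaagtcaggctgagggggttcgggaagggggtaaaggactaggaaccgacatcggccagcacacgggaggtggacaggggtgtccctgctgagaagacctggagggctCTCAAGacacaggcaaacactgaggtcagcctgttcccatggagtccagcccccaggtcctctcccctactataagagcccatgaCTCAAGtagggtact
It held CTCAAG 100 and 15 bases before the start. Sftpa1 held it 166 bases before the start, with a TATA box at 30, and Scgb3a1 held it on the minus strand at 172. No window of the 6 genes with a listed start held TTTATG or TGTTTAC. Other spellings of the caudal-type and forkhead motifs were not searched, so their absence is not shown. The genes on both sides of the comparison, Sftpa1 and Bpifa1 as well as Sftpb, held CTCAAG.

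Sftpc, the surfactant protein found in alveolar type 2 cells alone among lung cells, read 0.83, 0.90 and 0.91 in Cdx1-/- mTEC, against 1.27, 1.23 and 1.14 in Cdx1+/+ mTEC. The genotypes did not overlap, and the gap was small. The log2 difference was -0.33 (SE 0.08), or 1.26-fold, and -0.31 within slide 1, where it no longer passed. It did not pass either with replicate number as a block, with normexp background correction, in the authors' deposited table, without a filter on dim probes or without any 1 of the 6 arrays. Its probe spans 261 bases on chromosome 14 (70920899 to 70921159, mm9). With replicate number as a block the calls of the set were thus 3, Bpifa1, Bpifa3 and Sftpb. Those 3 also passed under all other alternatives, which refit the same arrays.

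**Figure D3:**
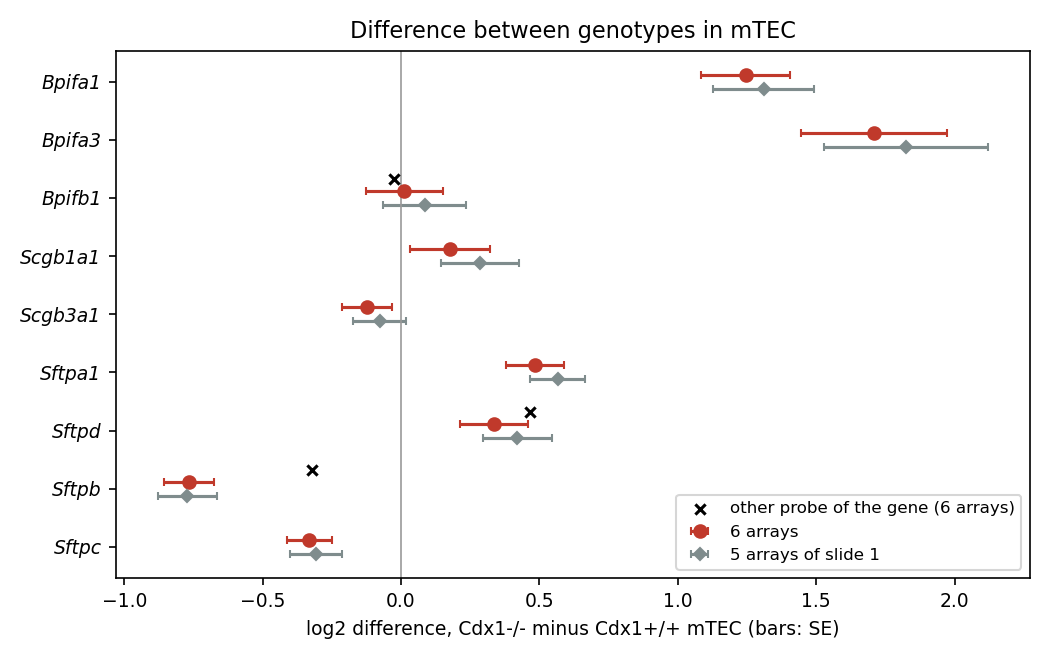
Log2 difference, Cdx1-/- minus Cdx1+/+ mTEC (x axis), of the 9 tested genes (y axis), with SE. Circles are the 6 mTEC arrays, diamonds the 5 arrays of slide 1 and crosses the second probe of Bpifb1, Sftpd and Sftpb. Bpifa3 and Bpifa1 lie furthest right and Sftpb furthest left, and the values within slide 1 lie near those of all arrays.

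The median SD within a genotype was 0.16 over the 9 genes and 0.15 over all genes tested, with Bpifa3 the widest in Cdx1-/- mTEC. The nearest tested genes around the others are given for comparison. Mbl1, a serum collectin gene 16.5 kb from Sftpd, was at -0.31 (SE 0.23, limma adjusted p = 0.406). Within 200 kb, 4 of 7 tested genes around Sftpd passed, Sftpa1 among them, and 3 of 7 around Sftpa1. These 2 stretches overlap, and 13.0% of all genes passed. The count was 0 of 12 around Sftpb, 2 of 11 around Sftpc, 1 of 13 around Scgb1a1, 1 of 6 around Scgb3a1 and 1 of 2 around Scgb3a2. Beside Sftpa1, Mat1a, a methionine adenosyltransferase gene, was at 0.27 (limma adjusted p = 0.0932) and the unnamed transcript TC1636493 fell by 0.60 (limma adjusted p = 0.0414). Atoh8 (-0.34) and Usp39 (0.11) flank Sftpb, Bmp1 (-0.08) and Lgi3 (-0.20) flank Sftpc, and Flt4 (0.14) and Cnot6 (0.18) flank Scgb3a1, none past the test. Of the neighbours of Scgb1a1, Ahnak was at 0.005 and Gm6252, 133.7 kb away, fell by 0.80 (limma adjusted p = 0.0143). Around Scgb3a2, Gm94, 10.3 kb away, rose by 1.20 (limma adjusted p = 0.0036), while Spink1, a protease inhibitor gene, was at -0.19. Scgb3a2 (probe at 43926850 to 43926909) lies on chromosome 18, as does Cdx1 (probe at 61178558 to 61178617, mm9). The mice were of mixed background, and strain differences on that chromosome were not tested.

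Compared with SIEC, all 9 measured genes were higher in mTEC, a comparison that also went into the choice of the set. Over 25155 genes tested, 34.3% were higher and 49.3% lower in mTEC, with a median log2 difference of -0.43. Most of the 9 entered this test through their mTEC signal alone, so no median is given for them. SIEC arrays had no signal well above background for Bpifa1, Scgb1a1, Scgb3a1, Sftpa1, Sftpb, Sftpc and Sftpd, so their folds are bounds against the lowest well measured signal. Their readings on the SIEC arrays ran from -6.13 to -4.52. Bpifa1 read -5.63 on the SIEC array labelled Cdx1-/- and -6.01 on that labelled Cdx1+/+, Sftpd -5.74 and -6.13, and Scgb1a1 -4.96 and -5.22, in the same order of labels. Within slide 2, the 1 mTEC array, Cdx1-/- replicate 1, read 5.59 for Bpifa1, 4.83 for Sftpd and 4.07 for Scgb1a1, so mTEC and SIEC lay far apart on the same slide too. By that bound mTEC were at least 473-fold higher than SIEC for Bpifa1, at least 393-fold for Sftpd and at least 254-fold for Scgb1a1. The bounds were at least 28.5-fold for Sftpc, 25.2-fold for Sftpa1, 23.3-fold for Scgb3a1 and 9.11-fold for Sftpb. These bounds hold for the processed signal. With normexp background correction, which treats dim signals differently, the fitted log2 differences were all below them, at 7.39 for Bpifa1, 7.24 for Sftpd, 6.28 for Scgb1a1, 3.28 for Sftpc, 2.92 for Sftpa1, 2.86 for Scgb3a1 and 1.74 for Sftpb. As folds these run from 3.33-fold for Sftpb to 167-fold for Bpifa1. The sizes also depend on how bright a gene was in mTEC, since the floor in SIEC was -3.56 on the array labelled Cdx1-/- and -4.02 on that labelled Cdx1+/+. With slide as a block the fitted log2 difference was 10.89, against 10.92 in the main fit, for Bpifa1, 9.02 against 9.29 for Scgb1a1, 5.40 against 5.55 for Scgb3a1 and 4.79 against 4.92 for Sftpb.

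Bpifb1 and Bpifa3 were the exceptions among the SIEC values. The first probe of Bpifb1 was not well above background there (at least 147-fold higher in mTEC by that bound), while its second probe was so on both SIEC arrays, at -2.63 on that labelled Cdx1-/- and -2.97 on that labelled Cdx1+/+. Its fitted difference between tissues was 5.65 (SE 0.16), and 4.41 with normexp. Bpifa3 read -3.00, well above background, on the SIEC array labelled Cdx1-/- and -5.83, not above it, on the SIEC array labelled Cdx1+/+. With 1 array each this difference has no test, and the Cdx1 probe of the same arrays goes against their labels. Bpifa3's fitted difference between tissues was 3.30 (SE 0.33), 2.86 with slide as a block and 1.04 with normexp background correction.

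Genes that accompany these products in the lung were tested from 9 lists, of 139 genes in all, made with earlier results of these data known. Of 118 tested, 13 rose and 13 fell in Cdx1-/- mTEC, 22.0% in all, where 13.0% of all genes passed, 6.31% as higher and 6.64% as lower. The median was -0.06. Since the lists were made with earlier results known, their share of calls beside that of all genes is a description. Within slide 1, 15 passed, against 7.34% of all genes there, and leaving out any 1 of the 6 arrays gave 10 to 15.

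Club cell and mucous cell genes, the neighbours of Scgb1a1 in the airway lining, were split. Of 19 tested, 2 rose, 1 fell and 16 missed the threshold (median -0.06). Cyp2f2, the cytochrome P450 gene by which club cells are recognised, averaged 4.18 ± 0.03 in Cdx1-/- mTEC and 3.13 ± 0.13 in Cdx1+/+ mTEC (SD, n = 3 each), a rise of 1.05 (SE 0.09, limma adjusted p = 0.00341). Gabrp, a GABA receptor subunit gene, rose by 0.87 (SE 0.15, limma adjusted p = 0.0169), while Pigr, which carries IgA across epithelium, fell by 0.83 (SE 0.14, limma adjusted p = 0.0163). Gabrp lost its call with normexp (0.53) and without Cdx1-/- replicate 3 or Cdx1+/+ replicate 1 or 3, and Pigr lost it without any 1 of the 3 Cdx1+/+ replicates. Scgb1a1 itself was at 0.18.

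Of the 11 other secretoglobin genes tested, 1 rose and 2 fell, with a median of -0.19. Scgb1b27 fell by 1.65 (SE 0.23) and was above background on 1 of the 3 Cdx1-/- arrays. It entered the test through its Cdx1+/+ arrays alone, so its call is a description and the size of its fall is not well measured. Scgb2b27 fell by 1.37 (SE 0.29, limma adjusted p = 0.0303), above background on 2 of the 3 Cdx1-/- arrays. Scgb2b7 rose by 0.45 (SE 0.09, limma adjusted p = 0.021). With normexp these differences were -0.80, -0.69 and 0.30, so their sizes depend on the background correction, and Scgb2b27 and Scgb2b7 no longer passed. Without a filter on dim probes, without Cdx1-/- replicate 3 or without any 1 of the Cdx1+/+ replicates neither of these 2 passed, and Scgb2b7 also failed without Cdx1-/- replicate 2. The 3 belong to a large family of near-identical copies, so which copy a probe reads is uncertain. Of 4 other collectin genes, relatives of SP-A and SP-D, 0 passed limma's test after adjustment and 1, Colec11 (-0.43), had an unadjusted p under 0.05, and their median was -0.29.

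In the list of alveolar type 2 cell and surfactant handling genes, 1 of 18 rose, 3 fell and 14 missed the threshold (median 0.10). Lyz2, a lysozyme gene of type 2 cells and macrophages, rose by 0.93 (SE 0.09, limma adjusted p = 0.0039). It is also 1 of the 8 dendritic cell and macrophage markers, of which Mrc1 fell, 6 did not pass and the log2 summed signal was 6.10 to 6.63 in Cdx1-/- mTEC and 6.51 to 6.76 in Cdx1+/+ mTEC. Dmbt1, whose product binds SP-D, fell by 1.06 (SE 0.11, limma adjusted p = 0.00486), and Lpcat1, which makes surfactant lipid, by 0.52 (SE 0.10, limma adjusted p = 0.0233). Ctsh, a cathepsin of SP-B maturation, fell by 0.40 (limma adjusted p = 0.0322) beside Sftpb (-0.77). Within slide 1 Lpcat1 (limma adjusted p = 0.0621) and Ctsh (limma adjusted p = 0.0782) no longer passed. Ctsh lost its call without any 1 of the 6 arrays, and Lpcat1 without any 1 except Cdx1+/+ replicate 3.

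Among alveolar type 1 genes, 2 of 9 rose and 2 fell, with a median of -0.11. The water channel gene Aqp5 rose by 0.78 (SE 0.10, limma adjusted p = 0.00726) and the membrane protein gene Emp2 by 0.45, while the scaffold gene Akap5 fell by 1.07 (SE 0.15, limma adjusted p = 0.00889) and the podoplanin gene Pdpn by 0.42. Emp2 and Pdpn did not pass within slide 1 or without any 1 of the 6 arrays. The mean of all probes of Emp2 gave 0.24, which did not pass, and Akap5 was at -0.59 with normexp and kept its call.

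Ciliated cell genes were mostly higher where they passed. Of 21 tested, 6 rose, 1 fell and 14 missed the threshold (median 0.19). The dynein light chain gene Dynlrb2 rose by 1.17 (SE 0.13, limma adjusted p = 0.00523), Deup1, a gene of centriole amplification, by 0.87 (SE 0.09, limma adjusted p = 0.00502), the sperm and cilium protein gene Lrrc23 by 0.80 (limma adjusted p = 0.00595) and the tektin gene Tekt1 by 0.59 (limma adjusted p = 0.0125), the last not past the test without Cdx1+/+ replicate 3. Foxj1, the master regulator of motile cilia, was at -0.28 and did not pass (limma adjusted p = 0.101). Within slide 1, 5 of the 21 passed, where 7.34% of all genes did. With replicate number as a block 10 passed, where 14.4% of all genes did.

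Airway basal cell genes and the transcription factors of lung were mostly below the threshold. Of 7 basal genes, only Ngfr fell (-0.39, SE 0.09, limma adjusted p = 0.0401; 0.0919 within slide 1). Among 18 transcription factor genes, Foxa2, a forkhead factor of endoderm, rose by 0.62 (SE 0.13, limma adjusted p = 0.0319) and Sox2 fell by 0.47 (SE 0.12, limma adjusted p = 0.048). Foxa2 did not pass within slide 1 (limma adjusted p = 0.0745), and Sox2 did not with replicate number as a block (limma adjusted p = 0.0693). Ngfr and Sox2 lost their calls without any 1 of the 6 arrays, Foxa2 without any 1 except Cdx1+/+ replicate 1, and Sox2 was at -0.15 with normexp and did not pass. Nkx2-1, the factor that activates secretoglobin and surfactant genes in lung, was well above background on 1 of the 6 mTEC arrays and on neither SIEC array, and was not tested. It was named after its values were seen.

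**Figure D4:**
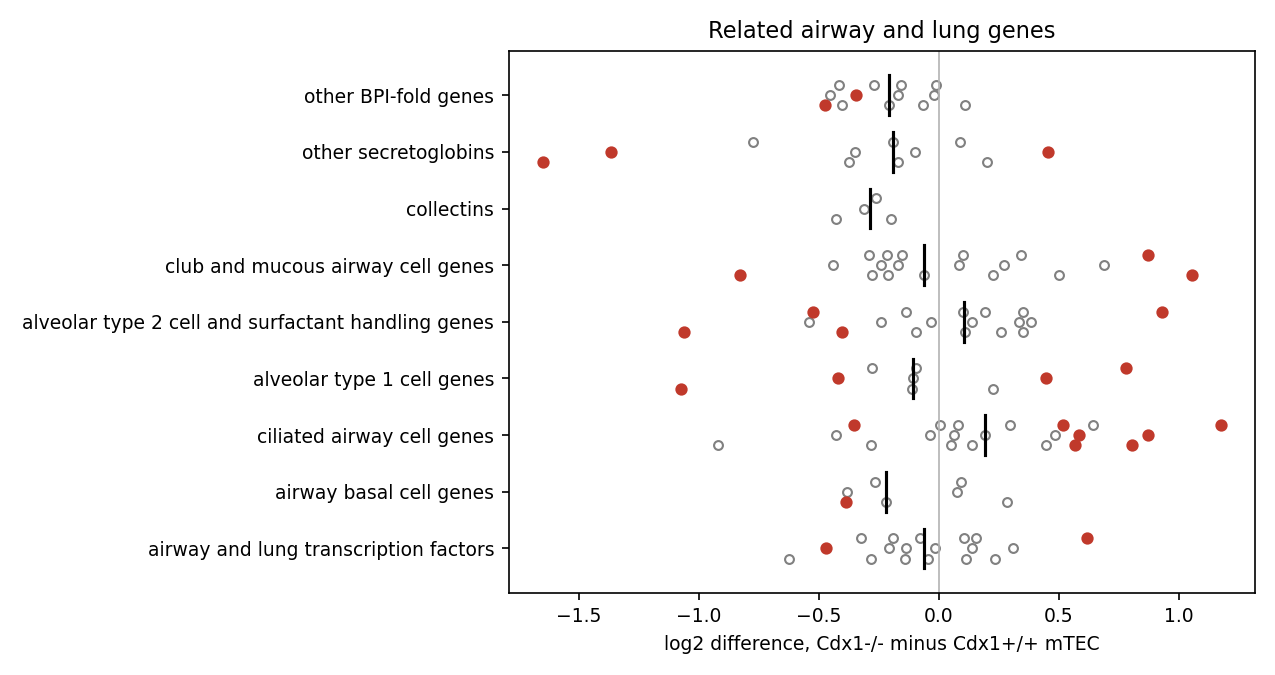
Log2 difference, Cdx1-/- minus Cdx1+/+ mTEC (x axis), of each tested gene in the 9 lists (y axis). Filled red points passed limma's test at an adjusted p under 0.05, open points did not, and vertical bars are list medians. Points lie on both sides of 0 in every list except the collectins, with medians between -0.29 and 0.19.

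Many genes of these lists entered the comparison with SIEC through their mTEC signal alone, so no count over the lists is given. By the bound used above, Bpifb3 was at least 90.2-fold and Scgb1c1 at least 137-fold higher in mTEC, and Dmbt1, an intestinal product as well, differed by -7.08 on the log2 scale, lower in mTEC. The keratin gene Krt5 was at least 1278-fold higher. These bounds, too, hold for the processed signal.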

How the data were processed

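Spot intensity on 1-colour arrays was deposited on a linear scale, from Agilent Feature Extraction 10.7.3.1, per the file headers. Its processed intensity has the background subtracted within each array, as the headers also say. The authors' deposited table of normalized intensity, on a linear scale, was found to be the processed intensity of each array times 1 constant, with a median of 1 in each column. The basis of that scaling is not stated in the labels or headers. Positions of probes are on mouse build mm9, as in the files.

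The processed intensity was log2-transformed and the array's 75th percentile was subtracted. Spots flagged as outliers were dropped, the other spots of a probe were averaged, and 55669 probes were used. A gene was represented by its brightest probe, of those that exceeded background clearly on 2 or more arrays of an mTEC group, or on a SIEC array in the tissue comparison. Probe accessions were named through RefSeq (GRCm38.p6, names only) for 27509 probes, 3549 kept a file symbol the table holds, 404 went through an older name and 24219 kept the file's own name.

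Genotypes were compared on the 6 mTEC arrays, and tissues on all 8 with genotype as an additive term, by limma 3.58.1 in R 4.3.3 (lmFit and eBayes, 2-sided, Benjamini-Hochberg over all genes tested, threshold 0.05). The SIEC pair has 1 array per genotype and no test. The spread measured is that between pooled samples. The members and the lists were chosen with earlier results of these data known. Named genes are the members, the BPI-fold genes within 1 Mb, up to 4 called and 2 tissue-differing genes of each list, and the nearest tested neighbours within 200 kb. Replicate numbers come from the titles. Deviations from the group means of same-numbered mTEC arrays correlated by 0.323, 0.148 and 0.148, all above 0.1, so the numbers may pair the samples. Between arrays of different numbers the values ran from -0.222 to 0.0561. These are not a separate contrast, since deviations from a group mean cancel within the group. The main fits do not model a pairing, and the fits with replicate number as a block do. There 3 of the 9 genes passed, against 5 in the main fit, and 30 list genes, against 26. The fit was tested on simulated data. Figures were drawn with matplotlib 3.10.9.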

Additional observations from a re-analysis of the deposited data

Results flagged for a closer look

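Of the genes named above that were well above background on both SIEC arrays, 4 went the other way in the SIEC pair than on every mTEC array compared, and the difference between the tissues was not tested. One is Cdx1 itself, 1.61 higher on the SIEC array labelled Cdx1-/- than on that labelled Cdx1+/+ (log2), against a fall of 0.99 in mTEC. Since the Cdx1 probe goes against the labels of this pair, the directions below hold as labelled only. An exchange of the 2 labels would turn their signs and was not tested. Dmbt1 was 0.20 higher on the SIEC array labelled Cdx1-/- than on that labelled Cdx1+/+ (log2), against a fall of 1.06 in mTEC. Emp2 was at -1.01 in the SIEC pair, against a rise of 0.45 in mTEC, and Foxa2 at -0.36, against a rise of 0.62 in mTEC. Each SIEC value is a single array against a single array. Genes that went the same way in both tissues were not counted, so the 4 do not tell how often the tissues differ.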

How the results depend on the processing

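Bpifa1, Bpifa3 and Sftpb passed the test under every alternative run in the genotype comparison, and Bpifb1, Scgb1a1, Scgb3a1 and Sftpd under none. The set was chosen with this contrast known and the alternatives refit the same arrays. These calls therefore describe how the fits depend on processing and give no further support. Of those 16 alternatives 13 gave fits of their own, since slide as a block, slide 1 alone and leaving out Cdx1-/- replicate 1 are 1 fit and all 8 arrays together gave the main values. All 9 genes kept a difference of the same sign, except Bpifb1, which ranged from -0.10 to 0.12. Their number called, 5 in the main analysis, was 3 without a filter on dim probes, 3 with replicate block and 3 to 4 without 1 replicate. The genes called over the whole array, 3138, were 1976 with normexp, 1326 with no filter, 1779 with slide as a block or within slide 1, and 1069 to 1779 without 1 replicate. The calls in the 9 lists, 26, were 13 with no filter, 15 with slide as a block or within slide 1, and 10 to 15 without 1 replicate. With replicate number as a block 30 passed, and apart from Sftpa1, Sftpc and Sox2 it ended no call of the list genes named above. Of 368 values of named list genes, repeated fits counted each time, 259 kept their call and 109 lost it, and none changed sign. The 9 that passed under every one were Scgb1b27, Cyp2f2, Lyz2, Dmbt1, Aqp5, Akap5, Deup1, Dynlrb2 and Lrrc23. Of these, Scgb1b27 entered the main test through its Cdx1+/+ arrays alone. Between tissues all 9 genes stayed higher in mTEC under the 15 alternatives run, which gives no further support either. The set was chosen with that comparison known, and most of the 9 entered it through their mTEC signal alone. There, normexp gave smaller differences (Bpifa1 7.39, Sftpb 1.74) and 6023 genes higher in mTEC against 14479 lower, where the main analysis had 8639 and 12405. All genes' median was -0.43 there, -0.13 after quantile normalization and -0.90 in the authors' deposited table. In SIEC the signal over background limits the folds of genes not well above it to a bound, and 1 array per genotype gives no spread.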
